A study of Caenorhabditis elegans with 2 samples.

Results

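Regions between divergent gene pairs are stretches of DNA that lie upstream of 2 genes at once, one read to the left and one to the right. They were chosen by position and strength among the regions recovered with LET-607. Of the 3000 regions with the highest deposited signal in the pooled list, 267 (8.90%) had a summit 0 to 1000 bp upstream of a protein-coding start on the plus strand and also of one on the minus strand. A further 1115 (37.2%) lay upstream of a start on 1 strand, and 1618 (53.9%) lay upstream of none. The deposited signal selected these 267 regions, so its values below are a description and support no test. The paired genes are the nearest start on each strand, and the 267 regions belong to 254 pairs with 505 genes.

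LET-607 belongs to the CREB3 family of transcription factors, which bind DNA through a basic leucine zipper. In mammals this family is anchored in the membrane of the endoplasmic reticulum (ER), released by proteolysis, and known for driving genes of the secretory pathway. The secretory pathway moves new proteins through the Sec61 channel into the ER, folds and glycosylates them, and sends them to the Golgi in coated vesicles. Genes in a divergent pair share the DNA between their starts, so a bound site there does not by its position tell which gene it serves.

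The study used chromatin immunoprecipitation with sequencing (ChIP-seq) on whole worms, in 1 group of 2 biological replicates. All worms were of Caenorhabditis elegans strain YL651. They carried the let-607 allele tm1423 and, on chromosome III, the unc-119 allele ed3, together with the transgene insertion vrIs121. That insertion brings in a LET-607 fosmid and a working unc-119 copy. The fosmid adds LET-607 with GFP and FLAG at its C-terminus, and the precipitating antibody was directed at GFP. Worms of both sexes were pooled, having been hatched and starved as first-stage larvae after bleaching and harvested as young adults at 49.5 hours. Each replicate is therefore a pool of many animals and of all tissues, and a site used in a few cells cannot be told from a weak site used in many. The series has no second condition, so no comparison between conditions was possible.

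The sequences at the summits come first, because later results refer to them. Each of the first 10 lines gives a summit with 50 bp on each side, and the last line gives the whole interval from start to start. All are on the plus strand of ce11 (WBcel235), read 5′ to 3′. Capitals mark TGACG, ACGT, AGACGCAG and TGCAGT on either strand. The first 3 are strings counted throughout, and TGCAGT was noticed when these windows were read. The first 4 lines are strong regions at ER genes, the next pair are regions between a secretory gene and another gene, and F10G7.9 and tsn-1 is the strongest region with no listed gene. The rab-1 and copz-1 windows hold TGACGTGG, and drr-2 and set-16 has its summit closest to midway.
trap-2 and ile-2, chrX:768189-768289: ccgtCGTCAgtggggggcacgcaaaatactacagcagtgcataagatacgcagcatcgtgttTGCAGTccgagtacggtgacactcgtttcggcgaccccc
sec-61.B and trap-3, chrIV:2389074-2389174: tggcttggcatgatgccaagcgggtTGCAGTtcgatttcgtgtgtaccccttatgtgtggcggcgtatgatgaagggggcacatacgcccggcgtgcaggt
imp-2 and enpl-1, chrIV:11119177-11119277: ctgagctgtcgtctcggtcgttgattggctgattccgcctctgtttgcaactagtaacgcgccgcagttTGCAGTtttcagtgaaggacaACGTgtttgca
pdi-1 and C14B1.2, chrIII:3701737-3701837: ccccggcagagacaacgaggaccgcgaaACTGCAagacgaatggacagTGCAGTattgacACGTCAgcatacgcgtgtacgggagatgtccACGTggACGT
dcs-1 and sec-23, chrV:20090864-20090964: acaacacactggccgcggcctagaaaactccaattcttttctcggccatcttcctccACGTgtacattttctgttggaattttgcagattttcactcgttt
ccf-1 and trap-4, chrIII:11920463-11920563: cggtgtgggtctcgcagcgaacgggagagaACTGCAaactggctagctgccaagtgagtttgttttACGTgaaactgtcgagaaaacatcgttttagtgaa
F10G7.9 and tsn-1, chrII:4706517-4706617: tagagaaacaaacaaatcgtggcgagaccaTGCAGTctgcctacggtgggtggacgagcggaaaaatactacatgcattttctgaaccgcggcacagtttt
rab-1 and C39F7.5, chrV:1264462-1264562: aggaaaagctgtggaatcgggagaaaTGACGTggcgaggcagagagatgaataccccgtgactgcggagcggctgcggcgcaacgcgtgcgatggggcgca
cyn-4 and copz-1, chrII:10872785-10872885: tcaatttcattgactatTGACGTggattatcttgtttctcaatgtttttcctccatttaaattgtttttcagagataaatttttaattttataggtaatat
drr-2 and set-16, chrIII:13643694-13643794: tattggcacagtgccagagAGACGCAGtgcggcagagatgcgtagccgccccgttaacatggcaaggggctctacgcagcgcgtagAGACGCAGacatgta
Y54G2A.28 and vrp-1, chrIV:3012421-3012587: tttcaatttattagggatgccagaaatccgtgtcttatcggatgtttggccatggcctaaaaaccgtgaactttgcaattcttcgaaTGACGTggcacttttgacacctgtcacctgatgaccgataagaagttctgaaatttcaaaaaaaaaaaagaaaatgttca

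Divergent positions took a larger share of the regions the stronger the regions were. They held 10 of the 20 strongest regions (95% Wilson interval 29.9 to 70.1%), 15 of the next 80 (18.8%) and 34 of the next 200 (12.4 to 22.8%). The share was 10.1% of the 700 that followed, 8.20% of the next 1000 and 5.50% of the last 1000. Among the other 27000 pooled regions it was 2.17%. Positions that meet the rule cover 1.72% of the bases of the 6 nuclear chromosomes. Intervals on shares cover counting error only, and regions are not replicates.

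**Figure D1:**
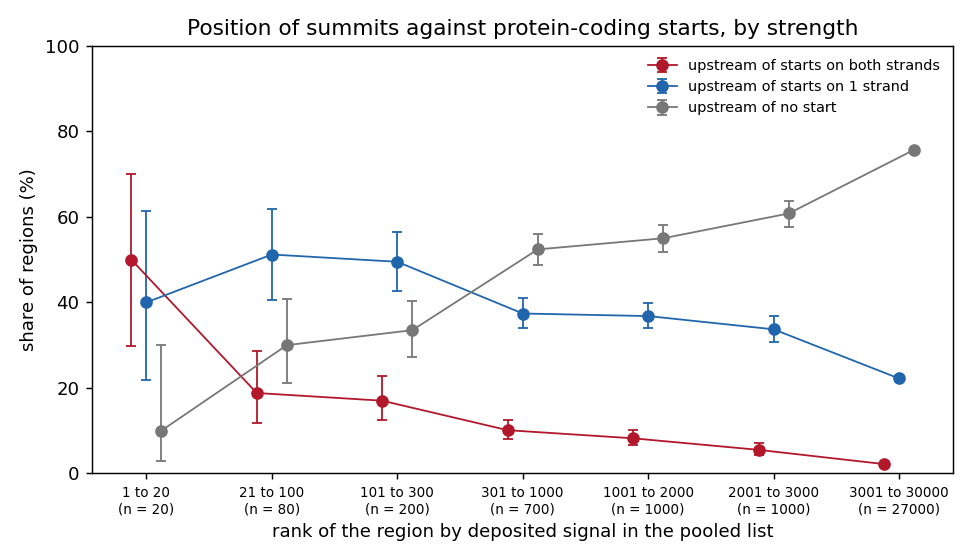
Share of pooled regions (y axis, percent) in each position class by rank of deposited signal (x axis). Points are shares and bars 95% Wilson intervals. The share upstream of starts on both strands fell from 10 of 20 at the top to 2.17% beyond rank 3000, and the share upstream of no start rose from 2 of 20 to 75.7%.

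The deposited signal of the 267 regions ranged from 81.4 to 6859, with a median of 132 and an upper quartile of 228. The sources used here do not give its formula, so it ranks regions and is not an amount of protein. The median was 114 for regions upstream of 1 strand and 106 for regions upstream of none. The authors' thresholded list, built on agreement between replicates, contained 175 of the 267 (65.5%, 59.7 to 71.0), against 49.6% of all 3000. Since that list equals the pooled regions of highest signal, this restates their strength. At the edge of the choice, perm-3 and swsn-6 (81.7) and PDB1.1 and F08C6.5 (81.4) were just inside, and sax-1 and R11G1.2 (81.0) and tpp-2 and rbbp-5 (80.8) just outside. At the edge of the window, gbf-1 stood 998 bp and unc-132 995 bp from the summit, while vnut-1 at 1006 bp and tsp-12 at 1012 bp fell outside.

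Most summits lay outside every protein-coding gene, a place that the rule favours by asking for a start on each side. Non-coding genes were not counted for this. Of the 267, 224 (83.9%) were intergenic, 22 lay in an intron, 18 in an untranslated exon and 3 in a coding exon. In 34 cases the gene around the summit was one of the pair. In 19 regions a start that the summit had already passed was nearer than both upstream starts. The sec-61.A region was among these, with a passed start of sec-61.A itself at 254 bp, against 669 bp for the nearer upstream one. Its summit lies in an untranslated exon of sec-61.A. Many worm transcripts are trans-spliced and their annotated start is then the splice site, so distances are to annotated and not necessarily to first transcribed bases.

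The 4 regions with a secretory gene on each side were all among the 13 strongest. The strongest region of the list lay between trap-2, whose product assists the Sec61 channel as part of the TRAP complex, and ile-2, which encodes a lectin-type cargo receptor. Its summit was 170 bp from trap-2 and 357 bp from ile-2, with signals of 3106 and 3782 in replicates 1 and 2. Between sec-61.B, the beta subunit of the Sec61 channel, and trap-3, another translocon-associated subunit, the signal was 2779 and 3550. There the summit was nearer to trap-3, at 321 bp against 449 bp.

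The other such pairs joined different steps of the pathway. Between imp-2, an intramembrane protease, and enpl-1, the ER Hsp90 chaperone, the signal was 1570 in replicate 1 and 1836 in replicate 2. The summit stood 71 bp from enpl-1 and 340 bp from imp-2. Between pdi-3, a protein disulfide isomerase, and ubql-1, a ubiquilin of ER-associated degradation, the signal was 995 and 1169, and the distances were 624 bp and 551 bp. In all 4 regions both replicates placed the summit nearer to the same start as the pooled list.

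Secretory genes occurred on 1 side of 32 further regions, whose median signal was 186, against 127 for the 231 regions with no listed secretory gene. The lists are not complete, and the 231 include ostf-4, Y105E8A.2, rer-1, cogc-2, perm-3 and tram-1, whose annotated products act in the ER or Golgi and which were noticed after values were seen. Regions upstream of 1 strand had a secretory gene in 45 of 1115 cases (4.04%), with a median signal of 305. Such regions have genes on 1 side only, so they had fewer chances of a listed gene than divergent ones. Of the 25 divergent regions within the 100 strongest, 11 (44.0%) had a secretory gene. The share was 17.6% of the 34 down to rank 300, 9.86% of the 71 down to rank 1000, 8.54% of the 82 down to rank 2000 and 9.09% of the 55 below that.

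Counted from the genome instead, 3132 pairs are annotated within reach of the rule, and 8.11% of them held one of the 267 regions. A region of the thresholded list was held by 5.30%. Pairs with a secretory gene held a region in 32 of 79 cases (40.5%, 30.4 to 51.5), and a thresholded one in 31.6%. Taking for each pair the shortest interval between its starts that meets the rule, the median was 784 bp for all annotated pairs and 540 bp for those with a region. The lists were made with earlier results of these data known, which had shown LET-607 at secretory genes, so these shares are no independent evidence of that.

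By step of the pathway, ER translocation pairs held a region in 9 of 15 cases and ER folding pairs in 6 of 10. The folding genes were enpl-1, pdi-1, pdi-3, dnj-20, dnj-28 and hsp-110. Of these, hsp-110 encodes a chaperone of the Hsp110 type that is cytosolic in mammals. It was kept in the list, so all counts of ER folding and secretory genes given here include it. N-glycosylation had 7 of 14, ER-associated degradation 3 of 7, the return coat COPI 2 of 4 and the export coat COPII 2 of 5. ER-Golgi tethering and fusion had 5 of 19, cargo receptors 1 of 6 and regulators of the unfolded protein response 0 of 2. With so few pairs the intervals are wide, for example 31.3 to 83.2% for ER folding.

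Other gene groups differed widely. Cytosolic ribosomal protein genes held a region in 18 of 56 pairs (32.1%, 21.4 to 45.2), and all 18 were thresholded. Cytosolic heat shock genes had 5 of 8, translation factors 6 of 27, splicing and RNA processing 7 of 40, and the respiratory chain and ATP synthase 5 of 29. The vacuolar ATPase had 2 of 9 and aminoacyl-tRNA synthetases 3 of 19. The intervals of these and of the respiratory chain began at 6.32%, 5.52% and 7.60%, so they include the share of all pairs. Shares close to the 8.11% of all pairs were found for the proteasome (3 of 34) and the mitochondrial ribosome (4 of 36). Chemoreceptors (6 of 254, 1.09 to 5.06%) were below it. Histones (2 of 47) and collagens (1 of 46) were lower too, but their intervals reached 14.2% and 11.3% and include it.

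**Figure D2:**
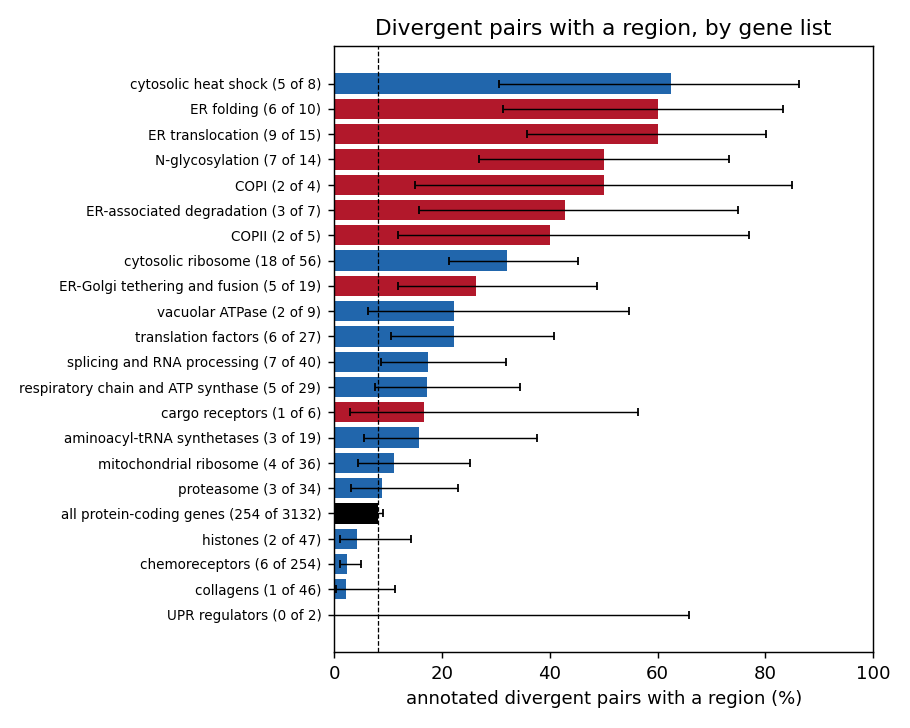
Percent of annotated divergent pairs with at least 1 gene of a list (y axis, with counts) that held one of the 267 regions (x axis). Bars are shares with 95% Wilson intervals, red for secretory lists, blue for other lists and black for all protein-coding genes, whose 8.11% is the dashed line. ER translocation and ER folding stood at 60.0%, chemoreceptors at 2.36%.

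The 19 regions with a cytosolic ribosomal gene had a median signal of 269, against 132 for all 267, and ranged from 129 to 4424. After sec-61.A and rps-18, a pair of the channel's alpha subunit with a ribosomal protein of the small subunit, came rpl-1 and Y71F9AL.9 at 1250, rpl-20 and Y17G9B.5 at 543 and rpl-15 and K11H12.8 at 535. A single region had a ribosomal gene on each side, rps-10 and rpl-24.1 at 269. Where 1 of the genes was ribosomal, its start was the nearer in 8 of 18 regions (44.4%, 24.6 to 66.3). The regions of listed cytosolic heat shock genes were weaker, from 90.4 at mtx-1 and dnj-12 to 209 at F54D5.9 and dnj-13. F44E5.4 and F44E5.5 (365), a pair with the same annotated product, heat shock protein 70, was outside the list and noticed after its value was seen. The pair hsp-16.2 and hsp-16.41 held regions of 104 and 94.9, and these small heat shock genes have near-identical copies, so their reads are uncertain.

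Several of the strongest regions had no secretory gene by the lists. F10G7.9 and tsn-1, which encodes a staphylococcal nuclease domain protein, reached 879 and 1260 in the replicates. The region of srh-70 and ceh-99 had 679 and 929, and its interval also holds the microRNA gene mir-77 and a snoRNA gene. At iff-2, an eIF5A translation factor, with F54C9.14 the signal was 725 and 827, and the summit stood 77 bp from iff-2. At clsp-1 and eef-2 the summit was 24 bp from the counted start of eef-2, which encodes elongation factor 2. That summit lay in an untranslated exon of eef-2, with a passed start of the same gene at 22 bp. The region of tram-1 and C24F3.2 (559 and 605) has a translocating chain-associated membrane protein gene 954 bp from the summit. The lists lack tram-1, which was noticed after its value was seen.

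The remaining pairs of the 25 strongest were of mixed function. They were epc-1 and Y111B2A.12 (939), vgln-1 and C08H9.16 (900), tbb-1 and rib-2 (842), K01G5.10 and tasp-1 (669), R107.5 and cls-2 (528) and Y54G2A.28 and vrp-1 (501). The genes tbb-1, a beta tubulin, and cls-2, a microtubule-binding TOG domain protein, belong to the cytoskeleton. The last pair has an interval of 166 bp, printed above in full.

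Which start was nearer was close to even between the strands. The plus-strand start was the nearer in 146 of 267 regions (54.7%, 48.7 to 60.5) and the minus-strand start in 121. At the replicate summits the plus-strand start was nearer in 139 of 264 and in 138 of 267 regions. The nearer start was a median of 167 bp away (quartiles 70.5 and 264) and the farther one 429 bp (276 and 660). Of the 267, 166 (62.2%) had a start within 200 bp, and 32 had both within that distance.

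Summits were spread over the whole interval between the starts. When the interval was divided into equal parts of 3, 82 summits fell in the part by the minus-strand start, 99 in the middle and 86 in the part by the plus-strand start. The distances differed by at most 50 bp in 34 regions. As a fraction of the interval, the summits nearest to midway were those of drr-2 and set-16 (174 and 172 bp), col-38 and rpl-5 (422 and 417 bp), sec-61.A and rps-18 (680 and 669 bp), vps-51 and lin-35 (207 and 211 bp) and mfn-1 and W02B12.11 (912 and 933 bp). The shortest distances were 1 bp at F32D8.14 and F32D8.5, at atp-1 with mcrs-1 and at Y37E11B.10 with kgb-2, then 2 bp at ears-2 with uncp-18 and 5 bp at spe-48 with Y51F10.11. F32D8.14 and F32D8.5 have starts 12 bp apart, the shortest interval of all.

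The called regions had a median width of 404 bp, and both quartiles were 404 bp too, so most shared that width. The interval between paired starts had a median of 600 bp and a lower quartile of 406 bp, so most intervals were wider. How many starts a region covered depends on this nearly fixed width. The region covered neither start in 107 cases, 1 start in 135 and both in 25. Signal and interval had a Spearman correlation of 0.00 over the 267 regions and, on log2 values, a Pearson correlation of 0.03. With the distance of the nearer start they were 0.09 and 0.08.

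**Figure D3:**
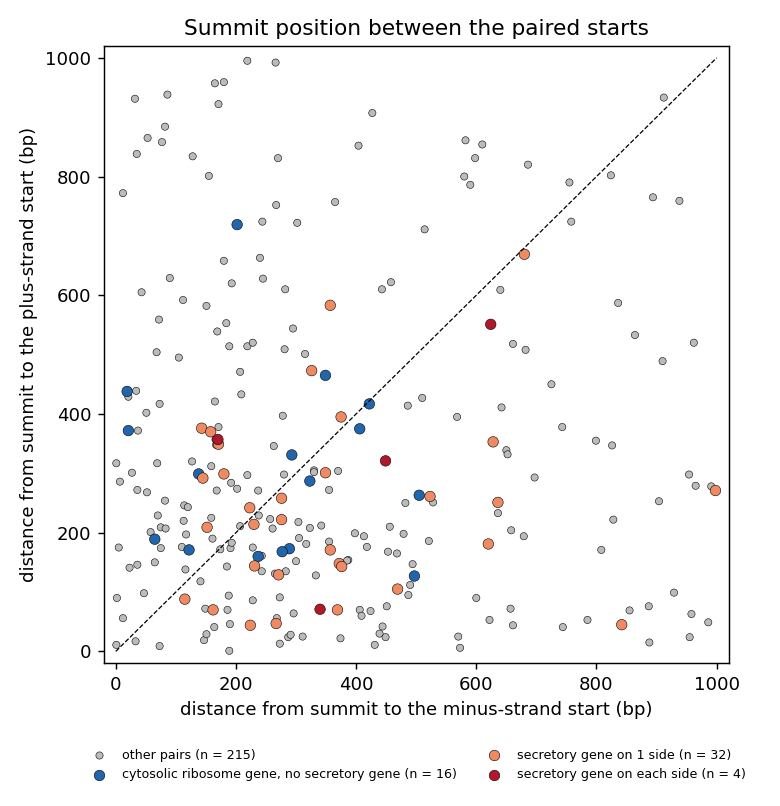
Distance from each summit to the minus-strand start (x axis, bp) and to the plus-strand start (y axis, bp), 1 point per region. The dashed line marks equal distances. Regions below it (146) were nearer to the plus-strand start and those above it (121) to the minus-strand start, and colours give the gene groups.

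In the 32 regions with 1 secretory gene, that gene's start was the nearer in 15 (46.9%, 30.9 to 63.6). The median distance was 278 bp to the secretory start and 264 bp to the other. Where a pair held 2 regions, both are among the 32, and with 1 region per gene pair the share was 46.4%. The nearer side was the same in the pooled list and both replicates for 29 of 32. The others were hsp-110 with rpn-3 and the weaker regions of dnj-29 and sec-23. Those weaker regions were matched in at least 1 replicate to the stronger neighbouring region. In the 11 of the 32 regions whose secretory gene is on the ER translocation or folding list, it was the nearer in 7 (63.6%).

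The secretory start was nearer at pdi-1 with C14B1.2, where the signal was 1084 and 1344 in the replicates. It was also nearer at trap-4, a translocon-associated subunit, with ccf-1, a deadenylase subunit (717 and 794). Further regions of this kind, with their pooled signal, were dnj-29 with ndua-2 (583), copa-1 with gst-43 (442), tfg-1 with tdpt-1 (427), dnj-20 with ZK1307.8, ubc-6 with aka-1 (196), dpm-3 with rps-23 (164), sec-23 with dcs-1 (137) and sly-1 with sip-1 (132). The gene ZK1307.8 is annotated as the beta subunit of glucosidase 2, an ER enzyme that trims N-glycans, and was outside the lists. It was noticed after its value was seen.

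The other gene's start was nearer in several strong regions. At sec-61.A and rps-18 the difference was 11 bp (680 against 669), with signals of 2021 and 2415, and the passed start of sec-61.A, which the rule does not count, was nearer than either. At syx-5, an ER-Golgi syntaxin, the start lay 376 bp away and that of F55A11.1 143 bp, and the stronger sec-23 region was 349 bp from sec-23 and 171 bp from dcs-1, an mRNA decapping scavenger. Trehalase gene tre-1 was 70 bp from a summit that lay 369 bp from dad-1, a subunit of the oligosaccharyltransferase. That region lies 19.3 kb from let-607, within 50 kb of the gene whose fosmid the worms carried, and it was the single one of the 267 to do so. Further regions of this kind were rab-11.1 with rpl-7 (446), rab-1 with C39F7.5 (251), ribo-1 with rpn-1 (249), the weaker region of dnj-29 with ndua-2 and cup-2 with tag-353 (177).

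**Figure D4:**
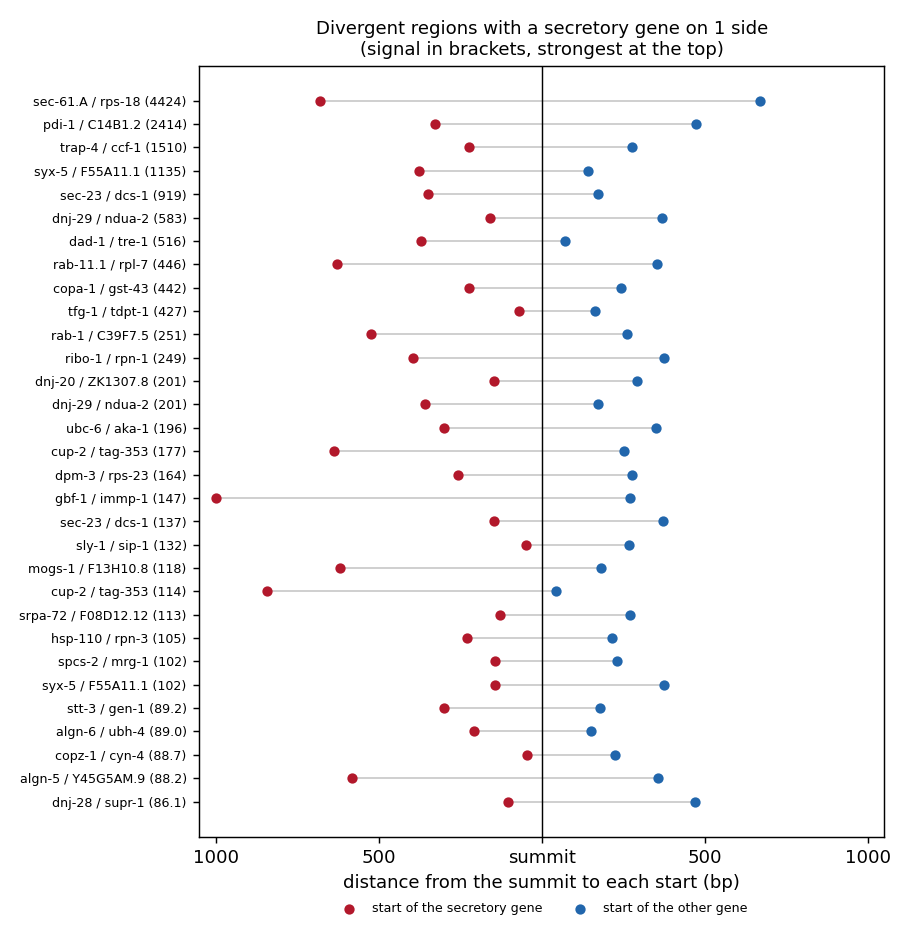
Regions with a secretory gene on 1 side, strongest at the top, with pooled signal in brackets. Red points give the distance from the summit to the secretory start and blue points to the other start (x axis, bp, mirrored so that the secretory gene is on the left). The secretory start was nearer in 15 of the 32, of which 1 is not drawn.

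Lists that met on opposite sides of 1 region, beyond the pairs above, were few. They were rsp-2 and rsp-1 (162), a pair of SR splicing factors, hsp-110 and rpn-3 (105), the small heat shock pair, and his-61 and his-62 (90.4), histones H2A and H2B. Most of these weak regions were outside the thresholded list.

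Of the 254 pairs, 13 held a pair of regions each. In 5 of them the stronger region was among the 100 strongest: srh-70 and ceh-99 (1609 and 141), rpl-1 and Y71F9AL.9 (1250 and 195), F55A11.1 and syx-5 (1135 and 102), dcs-1 and sec-23 (919 and 137) and dnj-29 and ndua-2 (583, the weaker region being at rank 471). The other pairs were R186.8 and lin-46, R04E5.9 and cnnm-2, T26A8.4 and pdtf-1, let-70 and klc-1, cup-2 and tag-353, ecps-1 and atx-2, icd-1 and vps-32.1, and hsp-16.2 and hsp-16.41. In 9 of the 13 the summits were 190 to 210 bp apart. Among all adjacent pooled summits within 1000 bp of each other, 13.1% had that spacing. In all 5 strong pairs the weaker summit lay to the right of the stronger, by 199 to 233 bp, as in every other pair except ecps-1 and atx-2. In 4 of the 5, all but srh-70 and ceh-99, the stronger summit was nearer to the minus-strand start and the weaker one to the plus-strand start. Their intervals were 519 to 624 bp, so a shift of that size can by itself change the nearer start. The srh-70 and ceh-99 regions have the same edges and differ only in their summits.

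Nearly all of the 267 regions were found in both replicates, as were nearly all of the 3000. Strong regions more often than weak ones had the same nearer start in each replicate. A region with its summit inside the pooled region was found in both replicates for 264 of 267 (98.9%), against 97.7% of all 3000. Replicate 1 had none at mtx-1 and dnj-12, at the weaker region of let-70 and klc-1 and at tim-1 and Y75B8A.23. The replicate lists are long, with 30000 and 26493 regions. A match among the 3000 strongest of replicate 1 was found for 76.4% of the 267, against 73.8% of all 3000. In replicate 2 these shares were 89.9% and 77.4%. Signal was a median of 64.6 in replicate 1 and 75.3 in replicate 2, and was higher in replicate 1 in 73 of 264. The pooled signal was a median of 1.00 times the sum of the replicate signals (quartiles 0.983 and 1.02) for the 249 regions matched to a region of their own in both. The pooled list was made from both replicates, so this is a description. Across the 264 regions, which share the pooling, the Spearman correlation of the replicates reached 0.73, and that of log2 signal by Pearson 0.90.

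Close neighbours limited the matching. Some regions matched the same replicate region as another one, 10 in replicate 1 and 14 in replicate 2. The 249 with a region of their own in both had a Spearman correlation of 0.72 and a Pearson correlation of 0.90. The weaker sec-23 region, for example, was matched in replicate 1 to the stronger neighbouring region.

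The replicate summits were a median of 22 bp apart, and 242 of 264 were within 100 bp. They gave the same nearer start in 234 of 264 regions (88.6%, 84.2 to 91.9). For the 25 regions within the 100 strongest it was 100%, and for the 53 matched below rank 2000 it was 75.5%. Where the 2 distances differed by at most 50 bp, 22 of 34 had the same nearer start, and where they differed by over 200 bp, 138 of 143 did.

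**Figure D5:**
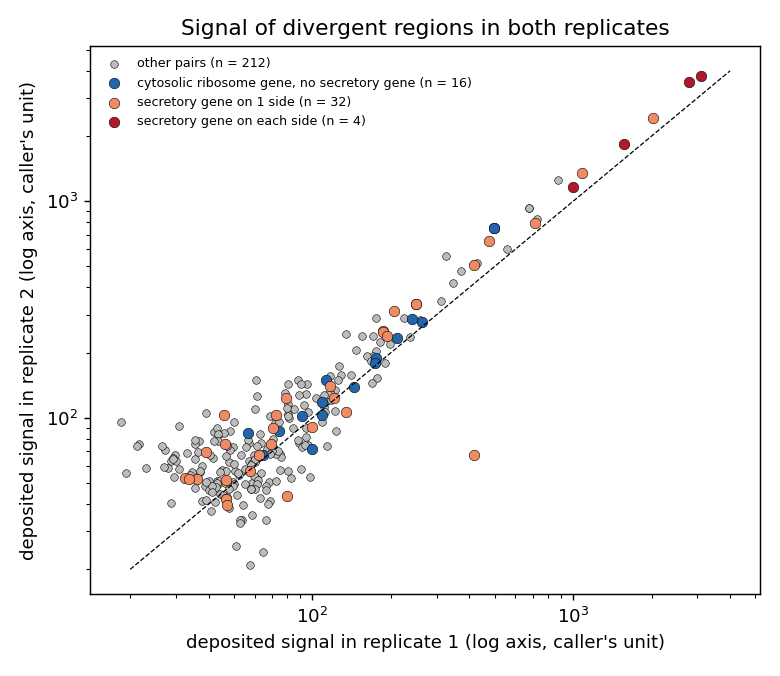
Deposited signal in replicate 1 (x axis) and replicate 2 (y axis), both on log axes, for the 264 regions found in both. The dashed line marks equal values, colours give the gene groups, and the orange point far to the right of the line is the weaker sec-23 region, matched to its neighbour in replicate 1. Most points lie above the line, 73 of 264 below it.

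Fixed short strings were looked for at the summits. Each was counted on both strands in the summit and 50 bp to each side, and a match is a description and not a bound site. ACGT, the core of elements bound by basic leucine zipper factors, was in 34.1% of the 267 windows (28.7 to 40.0), against 31.9% upstream of 1 strand and 28.7% upstream of none. TGACG, which overlaps it in TGACGT, was in 22.8% and 21.1%, and in 275 of the 1618 upstream of none. The unfolded protein response type element TGACGTGG was in 2 of 267 (0.749%), against 2.15% and 0.989%, and TGACGTCA, the cAMP response element, in 3 (1.12%), against 0.717% and 0.433%. CACGTG, an E-box that also contains ACGT, was in 4.87%, against 7.17% and 6.43%.

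TGATAA, the kind of site that zinc finger factors of the intestine bind, was in 9.36%, against 15.6% and 14.7%. AGACGCAG was in 6.37%, against 5.74% and 3.77%. GAGAGAGA was in 3.00%, against 3.95% and 3.40%. The share of G and C in the windows also differed, with medians of 47.5%, 44.6% and 43.6%, and its part in these shares was not tested. Within the 267, ACGT was in 58.3% of the 36 windows with a secretory gene in the pair (42.2 to 72.9) and in 30.3% of the other 231 (24.7 to 36.5).

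Both of the summit windows with TGACGTGG belonged to pairs with a vesicle transport gene. At rab-1, a small GTPase of ER-Golgi transport, and C39F7.5 the string stood 20.5 bp left of the summit. At cyn-4 and copz-1, the zeta subunit of COPI, it stood 29.5 bp left, and the region was weak (46.6 in replicate 1 and 42.1 in replicate 2). TGACGTCA was found at R12E2.13 and suco-1 (173), at plp-2 and rbg-1 (156) and at lst-6 and lst-5 (102).

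The chromosomes differed in how many of their regions were divergent. On X, 23 of 670 regions were divergent (3.43%), while the autosomes ranged from 10.1% to 11.4%. X has 192 annotated divergent pairs, against 496 to 772 on each autosome, and 22 of its 192 (11.5%) held a region. Chromosome III was highest at 58 of 496 pairs (11.7%) and V lowest at 42 of 772 (5.44%). The interval between the starts held a non-coding gene in 58 regions, of which 6 had a tRNA gene and 4 a microRNA gene.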

How the data were processed

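Per the file headers and the text deposited with them, the authors called candidate regions on ce11 from each replicate and from both replicates together, with a control, and derived the thresholded list by the irreproducible discovery rate. The deposited signal and the deposited −log10 q-value of each region are their caller's own, and that q-value has a ceiling of 3.18. Aligner and caller were not given in the sources used here, nor is the signal formula. No file gives read counts, so depth is unknown. Control reads were not analysed here. The pooled list held 30000 regions, replicate 1 30000, replicate 2 26493 and the thresholded list 1488.

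Summits were set against protein-coding transcript starts of Ensembl release 115 (WBcel235), with RefSeq product names and sequence of the same assembly. A replicate region matched when its summit fell inside the pooled region, the strongest if several did. Shares carry 95% Wilson intervals. Python 3.11.15, NumPy 2.4.6, SciPy 1.17.1 and Matplotlib 3.10.9 were used, and classification and string search were checked on simulated data. With 1 group, no test was run.

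The members, the 21 gene lists and the strings were chosen with earlier results of these data known. A name pattern that had put unrelated genes into the chemoreceptor list was corrected after values were seen. Named pairs were the 25 strongest, those with listed genes on each side, the 10 strongest with the secretory start nearer and farther, those with TGACGTGG or TGACGTCA, those with 2 regions, the 5 nearest midway, the 5 with the shortest distance, and those at the edges, except 1 that is not reported here. Alternatives changed the strength limit, the window, the starts, the counting unit, the replicates, the summit window and the matching.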

Additional observations from a re-analysis of the deposited data

How the results depend on the processing

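Of 94 alternatives, 66 kept a value within its counting interval, or for a count within 1.5 times, and 28 did not. Changing the strength limit or the window changes which regions enter, so most of these shifts follow from the construction. The number of regions (267) was 130 with the 1000 strongest, 175 with the thresholded list, 853 with all pooled regions, 158 with a 500 bp window and 471 with a 2000 bp window. The thresholded share (65.5%) was 100% with the 1000 strongest and 20.5% with all pooled regions. The median signal (132) was 230, 189 and 57.1 with the 1000 strongest, the thresholded and all pooled regions, and 70.2 to 74.1 on single replicates, whose signals add up to about the pooled one. The median nearer distance (167 bp) was 181 with all pooled regions and 135 and 202 with the shorter and longer windows. The median interval (600 bp) was 727, 448 and 1139 there.

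With 25 bp on each side of the summit the shares were 2.62% for CACGTG, 15.0% for TGACG, 22.8% for ACGT, 3.75% for TGATAA and 3.75% for AGACGCAG. With 100 bp on each side they were 33.3% for TGACG, 49.1% for ACGT, 20.2% for TGATAA and 5.99% for GAGAGAGA. Matching replicate summits within 100 bp gave 93.6% in place of 98.9%.

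The share with the plus-strand start nearer ran from 50.4% with all pooled regions to 57.7% with the thresholded list. The share of mixed pairs with the secretory start nearer ran from 41.4% without replicate 1 to 62.5% with the 500 bp window. Counting regions with exactly 1 gene of the ER lists gave 61.5%. Intergenic summits only, the exclusion around let-607 and the alternatives on mixed pairs other than the ER lists were chosen after seeing the data. No paired analysis was possible because there is only 1 group, with no test. Unknown depth and 2 replicates limit how far weak regions can be ranked.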

Other observations

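When the printed windows were read, TGCAGT recurred at the strongest divergent summits, so it is a string picked from the data it is counted in. Then 6 strings were counted, namely this one, 4 that overlap or lie within it (given next) and ACGT. TGACG was counted in the same way as well. Each was counted in the summit windows and in windows 300 bp to each side, and no test was made. TGCAGT was in 6 of the 10 divergent regions among the 20 strongest and in none of their flanks. These were the windows of trap-2 and ile-2, sec-61.B and trap-3, imp-2 and enpl-1, pdi-1 and C14B1.2, F10G7.9 and tsn-1, and ccf-1 and trap-4. It was also in 3 of the 8 regions of that strength upstream of 1 strand, with none in the left flanks and 1 in the right, so it is not shown to be particular to divergent regions.

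Over all 267 windows TGCAGT was in 11.6% (flanks 3.75% and 4.12%), against 5.47% upstream of 1 strand (3.86% and 2.96%) and 5.25% upstream of none (2.60% and 2.60%). TTGCAGT was in 6.37% of the 267 (1.12% and 2.25%), against 2.15% and 2.22% in the other classes. TGCAG was in 63 of the 267 (35 and 32 in the flanks), against 167 of 1115 and 246 of 1618 in the other classes, and TTTGCA in 18.4% (10.9% and 7.87%), against 10.7% and 9.77%. TGCA was in 52.8% (30.3% and 28.1%), against 34.8% and 34.7%. Below rank 1000 TGCAGT was in 8.76% of 137 divergent windows, against 4.40% and 5.09%.

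The sixth string, ACGT, ran the other way among strong regions. Of the 25 divergent regions within the 100 strongest, 44.0% had it (26.7 to 62.9), against 75.5% of 49 regions upstream of 1 strand (61.9 to 85.4). Over all ranks the shares were 34.1% and 31.9%, with 56 and 47 of the 267 flanks for the divergent regions. The split by rank was chosen after values were seen, and the median share of G and C in the 100 strongest was 50.5% and 49.5%.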
